A study of Mus musculus with 9 samples.

Results

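The Krüppel-like factors are transcription factors with zinc fingers at their carboxyl end that bind CACCC boxes and GC-rich sites. The members described here are Klf2, Klf3, Klf4, Klf6, Klf7, Klf10 and Klf13, chosen by symbol, and each was found once among the 47937 gene identifiers of the count table. All 7 passed the filter on low counts, which left 12536 genes for testing. In naive T cells KLF2 is known for keeping cells quiescent and for driving genes of exit from and entry into lymphoid tissue, such as S1pr1, and it is lost after stimulation of the T cell receptor. KLF3 is a repressor that recruits CtBP proteins, and several members compete for the same sites, so the level of one relative to another is part of how the family is described.

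The data were RNA sequencing counts from CD4+ T cells of spleens of C57BL/6 mice, purified on magnetic beads for a surface marker of naive cells. Cells activated after 15 min with TEPP-46 at 50 to 100 µM (TEPP-46 cells) were set against cells activated after 15 min with the solvent DMSO (control cells). Activation in both cases was by antibodies to CD3 and CD28 bound to the plate, and both kinds of activated cells were set against resting CD4+ T cells. The compound TEPP-46 is an activator of pyruvate kinase M2, an enzyme of the last step of glycolysis. Each of the 3 groups had 3 libraries, numbered 1, 4 and 5. The labels give the TEPP-46 dose only as that range, and the sources used here do not give the length of activation or any culture of the resting cells. No source used here says that the libraries of a group came from separate mice, so the spread that the p-values rest on may be technical.

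Total counts were between 2397304 and 5030643 per library, and levels are given as CPM (counts scaled to 1000000 per library, on TMM-scaled library sizes). T cell markers were high in every library, with Cd3e at 842 to 992 CPM in TEPP-46 cells, 282 to 483 CPM in control cells and 397 to 928 CPM in resting cells. Of 10 T cell markers, 4 were higher in TEPP-46 cells than in control cells, where 9.72% of all genes tested were higher. The median log2 fold change of the 10 was 0.99. The TEPP-46 libraries were less alike than the others: correlations of log2 CPM within the group started at 0.818, between replicates 1 and 4, against 0.972 as the lowest value among control libraries. Replicate 4 stood apart in its markers of other cells. Platelet and red cell markers summed to 16.8, 271 and 84.4 CPM in TEPP-46 replicates 1, 4 and 5, against 1.44 to 4.91 CPM in control libraries and 3.03 to 13.7 CPM in resting libraries, with 4, 6 and 2 of the 9 markers at 0 in TEPP-46, control and resting cells. The platelet gene Pf4 had 9.08, 154 and 45.6 CPM in those TEPP-46 libraries. The globin genes of this list had 0 counts in every TEPP-46 library and were highest in resting replicate 4. Neutrophil markers summed to 1.38, 183 and 4.53 CPM in TEPP-46 replicates 1, 4 and 5. Their sum was 0 to 1.26 CPM in control libraries and 106 to 186 CPM in resting libraries. Mpo was the highest of these markers, with 83.3, 118 and 87.6 CPM in resting replicates 1, 4 and 5. It had 86.1 CPM in TEPP-46 replicate 4. Elane, Ngp and Ltf reached at most 27.7, 25.6 and 11.4 CPM in resting libraries. S100a8, S100a9, Camp and Ly6g reached at most 2.90, 1.06, 2.64 and 0 CPM there. The 10 B cell markers summed to between 748 and 1339 CPM in TEPP-46 libraries, against 231 to 259 CPM in control libraries and 2574 to 3980 CPM in resting libraries, and 1 of them was at 0 in control cells. Replicate 1 of the resting cells also differed from the other resting libraries: 13 immediate early genes, which respond within minutes to stimulation or cell handling, summed to 4822 CPM there and to 14020 and 15261 CPM in resting replicates 4 and 5. Of 9 B cell markers tested, 7 were higher in TEPP-46 cells than in control cells, and 1 was without TEPP-46 replicate 4. Whether RNA of other cells took part in the KLF differences was not tested.

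In GRCm38 with the GENCODE M21 annotation, Klf2 (ENSMUSG00000055148.7) lies on chromosome 8 at 72319033 to 72321656 on the plus strand and Klf3 (ENSMUSG00000029178.14) on chromosome 5 at 64803388 to 64832901 on the plus strand. Klf4 (ENSMUSG00000003032.8) lies on chromosome 4 at 55527143 to 55532466 on the minus strand and Klf6 (ENSMUSG00000000078.6) on chromosome 13 at 5861482 to 5870394 on the plus strand. Klf7 (ENSMUSG00000025959.13) lies on chromosome 1 at 64029447 to 64122282, Klf10 (ENSMUSG00000037465.9) on chromosome 15 at 38291463 to 38300706 and Klf13 (ENSMUSG00000052040.10) on chromosome 7 at 63886351 to 63938915, all on the minus strand. The exons of Klf3 share 404 bases with the predicted gene Gm20033 on the opposite strand, which had 1666 counts over the 9 libraries. The exons of Klf7 share 3196 bases with Gm26649 on the opposite strand, which had 123 counts. The sources used here do not give the strand setting of the counting, so those reads cannot be told apart. No annotated gene overlapped Klf2, Klf4, Klf6 or Klf10, and no exonic base of Klf13 was shared.

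The transcripts of Klf2, Klf3 and Klf13 went the same way in 2 comparisons that share the control libraries. They were lower in control cells than in resting cells and higher in TEPP-46 cells than in control cells. For Klf2 and Klf13 the higher level in TEPP-46 cells kept its call in 4 of 9 fits that each left out 1 library. The DNA before their starts is shown because these members moved in the same direction in both comparisons. Each stretch is printed 5′ to 3′ on the strand of its gene, from RefSeq on GRCm38.p6, and ends at the base before the annotated GENCODE start. It covers chr8:72318812-72319032 (plus) for Klf2, chr5:64803271-64803387 (plus) for Klf3 and chr7:63938916-63939165 (minus) for Klf13. Capitals mark matches, on either strand, to the CACCC box (CACCC, or GGGTG on the other strand) and to the MEF2 consensus, the site of the factors that act on Klf2 downstream of the kinase ERK5.
Klf2: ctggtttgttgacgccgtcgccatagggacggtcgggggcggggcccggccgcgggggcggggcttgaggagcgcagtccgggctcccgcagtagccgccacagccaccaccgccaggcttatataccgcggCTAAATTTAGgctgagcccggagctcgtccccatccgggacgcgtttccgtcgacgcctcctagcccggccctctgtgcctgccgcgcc
Klf3: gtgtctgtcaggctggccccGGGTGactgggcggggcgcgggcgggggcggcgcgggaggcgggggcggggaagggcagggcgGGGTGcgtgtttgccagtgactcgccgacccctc
Klf13: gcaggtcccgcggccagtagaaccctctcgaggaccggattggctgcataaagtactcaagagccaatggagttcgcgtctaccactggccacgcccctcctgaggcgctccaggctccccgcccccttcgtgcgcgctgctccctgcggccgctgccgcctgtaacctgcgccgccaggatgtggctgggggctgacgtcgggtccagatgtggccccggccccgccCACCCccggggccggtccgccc
The Klf2 stretch of 221 bases held 1 match to the MEF2 consensus and none to CACCC, and 2.61% of 32851 RefSeq promoters held a MEF2 match in the same positions. The Klf3 stretch of 117 bases held 2 CACCC matches, and 28.4% of promoters held at least 1 in the same positions. The Klf13 stretch of 250 bases held 1 CACCC match, and 52.0% of promoters held at least 1. GGGCGG, the GC box that SP factors bind, occurred 2 times in Klf2, 5 times in Klf3 and 3 times in Klf13, where 28.6%, 12.4% and 32.7% of promoters held it in the same positions. It also occurred 4 times before Klf4 and 1 time before Klf6. Of the GGGCGG matches, 1 match in Klf3 and 1 in Klf13 shared a base with a CACCC match. GTAAACA, a FOXO site, occurred in none of them. These matches describe letters and not bound sites.

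Klf2 was the member with the widest range. It had 594, 965 and 188 CPM in TEPP-46 cells (replicates 1, 4 and 5), against 39.2, 160.1 and 91 CPM in control cells and 847, 1573 and 4083 CPM in resting cells. Every TEPP-46 library was above every control library, the lowest by a small margin, while TEPP-46 replicate 4 was above resting replicate 1. Klf2 was 6.01-fold higher in TEPP-46 cells than in control cells (log2 fold change 2.59 ± 0.73 SE, adjusted p = 0.0386 edgeR quasi-likelihood test, adjusted by Benjamini-Hochberg over all genes tested). It was 22.4-fold lower in control cells than in resting cells (log2 fold change -4.48 ± 0.80, adjusted p = 0.0028). The difference between TEPP-46 and resting cells was -1.90 ± 0.71 on the log2 scale and did not pass the threshold of 0.05 (adjusted p = 0.118, 95% interval -3.47 to -0.32). In bulk RNA, fewer cells that carry a transcript and less of it per cell cannot be told apart.

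The spread of Klf2 among replicates was large. The SD of its log2 CPM was 1.21 in TEPP-46 cells, 1.01 in control cells and 1.14 in resting cells, against medians over all genes tested of 0.52, 0.20 and 0.31. Its biological coefficient of variation was 0.57, above that of 93.1% of genes tested. Without TEPP-46 replicate 4 the log2 fold change over control cells was 2.02 and no longer passed (adjusted p = 0.0913). The call was also lost without control replicate 1 (0.129), control replicate 4 (0.0686), control replicate 5 (0.131) or resting replicate 4 (0.0544), all as adjusted p. With libraries weighted by quality in limma-voom it was 1.33 on the log2 scale (adjusted p = 0.0594).

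Klf3 varied least of these members, with a biological coefficient of variation of 0.24 against 0.57 for Klf2 and 0.37 for Klf13. It had 119.6, 184 and 138 CPM in TEPP-46 cells, against 62.5, 37.2 and 41.6 CPM in control cells and 307, 289 and 360.0 CPM in resting cells. The 3 groups did not overlap, and TEPP-46 cells lay between control and resting cells. Klf3 was 3.12-fold higher in TEPP-46 cells than in control cells (log2 fold change 1.64 ± 0.26, adjusted p = 0.00466). It was 6.76-fold lower in control cells than in resting cells (log2 fold change -2.76 ± 0.27, adjusted p = 0.000196). TEPP-46 cells stayed below resting cells by 1.12 on the log2 scale (-1.12 ± 0.25, adjusted p = 0.0218), a call that was lost without TEPP-46 replicate 5 (0.0624), resting replicate 4 (0.0567) or resting replicate 5 (0.081). The higher level in TEPP-46 cells over control cells kept its call in all 20 alternatives run, with adjusted p of at most 0.0377.

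KLF13 is known as an activator of the chemokine gene Ccl5 in late activated T cells. Its transcript had 555, 2301 and 1346 CPM in TEPP-46 cells, against 469.7, 433 and 342 CPM in control cells and 1676, 1165 and 1712 CPM in resting cells. All TEPP-46 libraries were above all control libraries, and the TEPP-46 libraries reached both below and above the resting range. Klf13 was 3.38-fold higher in TEPP-46 cells than in control cells (log2 fold change 1.76 ± 0.43, adjusted p = 0.0236). It was 3.66-fold lower in control cells than in resting cells (log2 fold change -1.87 ± 0.43, adjusted p = 0.00904). Between TEPP-46 and resting cells the log2 difference was -0.12 ± 0.42 (95% interval -1.04 to 0.80, adjusted p = 0.888), an interval that leaves room for a change in either direction.

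The spread of Klf13 lay in the TEPP-46 cells, with an SD of log2 CPM of 1.04 there, 0.24 in control cells and 0.31 in resting cells. The highest and the lowest TEPP-46 library, replicates 4 and 1, also had the highest and the lowest sum of platelet and red cell markers. The nuclear RNA Malat1 had 2532 CPM in TEPP-46 replicate 1, against 12292 and 12824 CPM in TEPP-46 replicates 4 and 5, and 20 ribosomal protein genes summed to 20419, 4656 and 10051 CPM in replicates 1, 4 and 5. Their part in the Klf13 result was not tested. Without TEPP-46 replicate 4 the log2 fold change over control cells was 1.20 (adjusted p = 0.0522). The call was also lost without TEPP-46 replicate 5 (0.0668), control replicate 1 (0.0756), control replicate 4 (0.0844) or control replicate 5 (0.101).

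**Figure D1:**
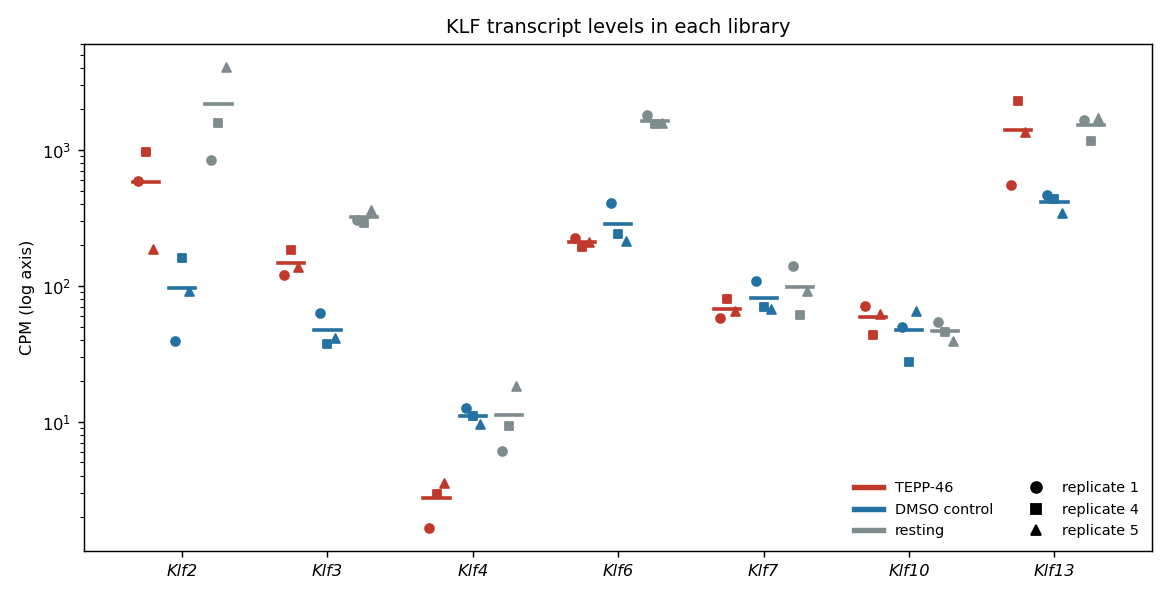
CPM on a log axis for each of the 7 KLF genes, with 1 point per library, shaped by replicate number, and a bar at each group's mean, for TEPP-46, control and resting cells. Klf2, Klf3 and Klf13 lie higher in all TEPP-46 libraries than in any control library, Klf4 lies lower, and Klf6, Klf7 and Klf10 overlap.

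KLF6 is a widely expressed activator that many cell types induce early after injury or stimulation. Klf6 had 226, 192 and 212 CPM in TEPP-46 cells, against 404, 241 and 215 CPM in control cells and 1816, 1559 and 1567 CPM in resting cells. All activated libraries were far below all resting libraries, and TEPP-46 and control cells overlapped. Klf6 was 5.75-fold lower in control cells than in resting cells (log2 fold change -2.52 ± 0.27, adjusted p = 0.000278) and 7.85-fold lower in TEPP-46 cells than in resting cells (-2.97 ± 0.27, adjusted p = 0.000689). Between TEPP-46 and control cells the log2 fold change was -0.45 ± 0.25 (95% interval -1.01 to 0.11, adjusted p = 0.236).

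KLF4 is known for restraining the cell cycle, partly through Cdkn1a, and as a reprogramming factor. It was the least abundant member, with 6, 7 and 11 raw counts in TEPP-46 cells (replicates 1, 4 and 5), 51, 46 and 38 in control cells and 30, 35 and 85 in resting cells. As CPM these were 1.65, 2.94 and 3.56 in TEPP-46 cells, against 12.5, 11.04 and 9.58 in control cells and 6.03, 9.24 and 18.4 in resting cells. The TEPP-46 libraries were below all 6 others, and a level of 3 counts, taken as the floor, corresponded to 0.596 to 1.25 CPM. Klf4 was 4.08-fold lower in TEPP-46 cells than in control cells (log2 fold change -2.03 ± 0.51, adjusted p = 0.0263). It was also lower in TEPP-46 cells than in resting cells (-2.05 ± 0.51, adjusted p = 0.0323). Control and resting cells overlapped, with a log2 difference of -0.02 ± 0.45 (95% interval -1.03 to 0.98, adjusted p = 0.975). The call against control cells was lost without TEPP-46 replicate 5 (0.0618), control replicate 1 (0.0875), control replicate 4 (0.0811) or control replicate 5 (0.0731), and the call against resting cells in 10 of 19 alternatives.

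Klf7 and Klf10 passed the threshold in no comparison, by edgeR, DESeq2 or limma-voom. KLF7 is a broadly expressed member studied mostly in neurons. Klf7 had 58.0, 79.4 and 65.4 CPM in TEPP-46 cells, against 108, 69.4 and 67.6 CPM in control cells and 141, 61.3 and 91.3 CPM in resting cells. The ranges overlapped in every pair of groups, and the 95% interval of the log2 fold change of TEPP-46 over control cells ran from -0.98 to 0.42 (adjusted p = 0.564). It ran from -1.24 to 0.16 for TEPP-46 over resting cells (adjusted p = 0.313) and from -0.95 to 0.44 for control over resting cells (adjusted p = 0.561). KLF10, also called TIEG1, is induced by TGF-beta and acts in its signalling in T cells. Klf10 had 70.4, 43.7 and 62.1 CPM in TEPP-46 cells, against 49.8, 27.6 and 65.3 CPM in control cells and 54.3, 45.7 and 38.9 CPM in resting cells. Its ranges overlapped too, with an interval of -0.40 to 1.02 for TEPP-46 over control cells (adjusted p = 0.525), -0.37 to 1.06 for TEPP-46 over resting cells (adjusted p = 0.533) and -0.67 to 0.75 for control over resting cells (adjusted p = 0.941).

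Counted together, 3 of the 7 members were higher and 1 was lower in TEPP-46 cells than in control cells. Over all genes tested 16.2% passed in that comparison, 9.72% higher and 6.43% lower. The same 4 members did not overlap between TEPP-46 and control libraries, and neither did 39.7% of all genes tested, 19.7% higher and 20% lower. In control cells against resting cells Klf2, Klf3, Klf6 and Klf13 were lower and the other 3 did not pass, where 31.2% of all genes passed, 15.5% higher and 15.8% lower. Among all genes 59.2% did not overlap between control and resting libraries, 29.2% higher and 30% lower. In TEPP-46 cells against resting cells Klf3, Klf4 and Klf6 were lower and the other 4 did not pass, where 10.3% of all genes passed, 6.37% higher and 3.92% lower. Among all genes 26.8% did not overlap between TEPP-46 and resting libraries, 12.6% higher and 14.1% lower. Both comparisons of activated cells with resting cells share the resting libraries, and both comparisons of control cells share the control libraries. The median log2 fold change of the members was 0.31 for TEPP-46 over control cells, -1.87 for control over resting cells and -1.12 for TEPP-46 over resting cells, against 0.04, -0.04 and 0.02 over all genes tested. Without TEPP-46 replicate 4, 1 member was higher and 1 lower against control cells, and Klf3 and Klf4 were the ones left. Without TEPP-46 replicate 5, Klf2 and Klf3 were left, and without control replicate 1, 4 or 5 only Klf3 was. Without resting replicate 4, Klf3, Klf4 and Klf13 were left. Without TEPP-46 replicate 1, resting replicate 1 or resting replicate 5, all 4 members stayed called. The members called were the same under each of the 3 other scalings. Scaling by total counts alone put 43.8% of all calls between TEPP-46 and control cells on the higher side, against 60.2% with TMM, and moved the median over all genes to -0.09. It moved that median to 0.07 for control over resting cells.

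**Figure D2:**
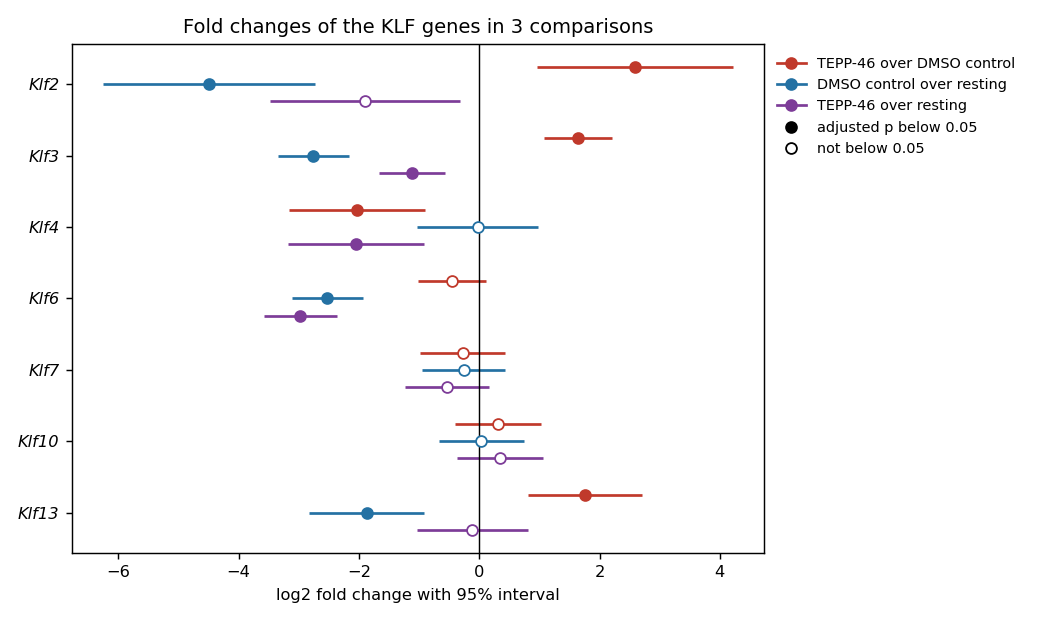
Log2 fold changes with 95% intervals for the 7 KLF genes in the 3 comparisons, with filled points where the adjusted p was below 0.05. The filled points for TEPP-46 over control cells are Klf2, Klf3 and Klf13 to the right of 0 and Klf4 to the left. For control over resting cells the filled points are Klf2, Klf3, Klf6 and Klf13, all to the left.

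Per length, the members' levels can be set beside each other. Klf2 stood at 315 CPM per kb of merged exons in TEPP-46 cells, 52.4 in control cells and 1173 in resting cells. Klf13 stood at 186 CPM per kb in TEPP-46 cells, 55.1 in control cells and 202 in resting cells, and Klf6 at 47.8, 65.3 and 375 CPM per kb in the same order of groups. Thus Klf2, Klf6 and Klf13 made up most of the summed level per length in each group, and each other member had a mean share of at most 5.87%. Klf2 held 50.7 ± 20.3% of the sum in TEPP-46 cells, 25.9 ± 14.7% in control cells and 59.2 ± 18.9% in resting cells (SD, n = 3 each). Klf6 held 9.55 ± 4.30% in TEPP-46 cells, 32.2 ± 10.1% in control cells and 24.5 ± 11.7% in resting cells. Klf13 held 32.6 ± 16.9% in TEPP-46 cells, 27.2 ± 2.07% in control cells and 12.7 ± 5.86% in resting cells. The shares were not tested, and they depend on the length used: with the mean annotated transcript length in place of merged exons, Klf13 held 52.0% and Klf2 25.8% in TEPP-46 cells.

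**Figure D3:**
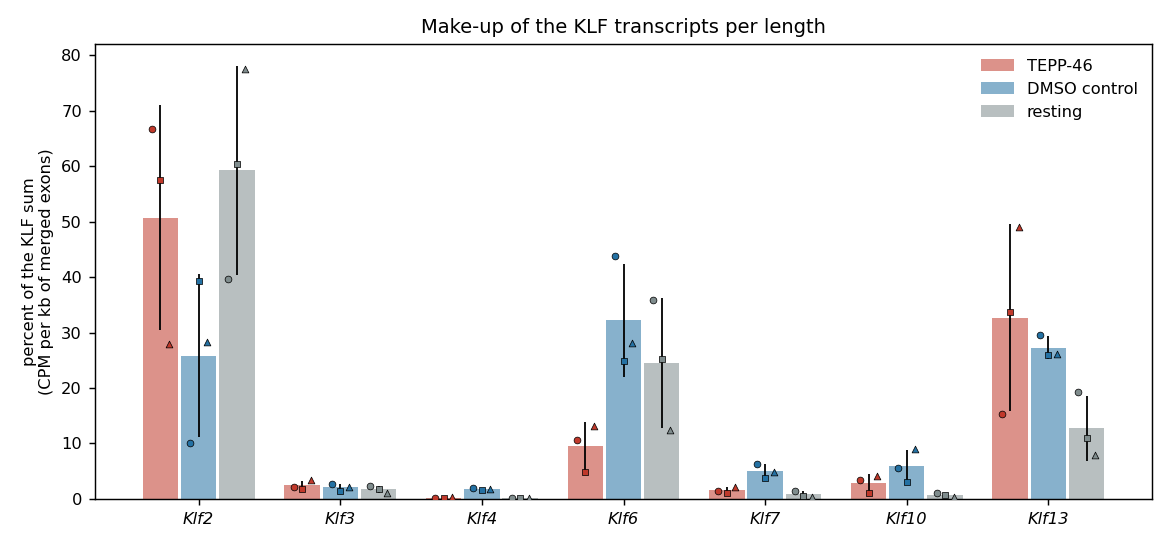
Percent of the summed KLF level (CPM per kb of merged exons) held by each member, as bars of the mean with SD over 3 libraries and points per library, for TEPP-46, control and resting cells. Klf2 has the tallest bars in TEPP-46 and resting cells, while Klf2, Klf6 and Klf13 have like bars in control cells.

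Of the 19 other KLF and SP genes, 9 were abundant enough to test. Klf9 and Klf16 were lower in TEPP-46 cells than in control cells, where 6.43% of all genes tested were lower, and the other 7 did not pass. Klf9 had 14.9, 17.2 and 10.7 CPM in TEPP-46 cells, against 54.5, 36.7 and 41.3 CPM in control cells and 8.25, 6.60 and 11.7 CPM in resting cells. Its TEPP-46 and resting libraries overlapped, and all control libraries were higher than both. Klf9 differed by a log2 fold change of -1.63 ± 0.32 in TEPP-46 over control cells (adjusted p = 0.00988) and rose by 2.31 ± 0.32 in control over resting cells (adjusted p = 0.00101). Klf16 averaged 13.3 CPM in TEPP-46 cells and 33.7 CPM in control cells (log2 fold change -1.36 ± 0.31, adjusted p = 0.0198). In control cells against resting cells Klf11 (-1.29 ± 0.30), Sp2 (-0.73 ± 0.23), Sp3 (-1.09 ± 0.22), Sp4 (-0.90 ± 0.25) and Sp6 (-2.20 ± 0.64) were lower on the log2 scale, with adjusted p between 0.00535 and 0.0364. Of all genes tested 15.8% were lower in that comparison. Sp2 did not pass under scaling by total counts alone (adjusted p = 0.0792). Sp6 was also lower in TEPP-46 cells than in resting cells (-3.25 ± 0.71, adjusted p = 0.0191).

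Klf1, the erythroid member, was not tested as 7 libraries had at most 3 counts. It had 3, 0 and 1 counts in TEPP-46 cells and 2, 2 and 3 in control cells, and 1, 33 and 100 counts in resting replicates 1, 4 and 5.

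Receptors for lymphocyte trafficking, several of them targets of KLF2, were mostly lower in control cells and higher in TEPP-46 cells. Of 10 receptors tested, 6 were higher in TEPP-46 cells than in control cells and the other 4 did not pass (median log2 fold change 1.60), and 7 were lower and 1 was higher in control cells than in resting cells (median -2.12). Over all genes tested 9.72% were higher in the first comparison, and 15.8% were lower and 15.5% higher in the second. S1pr1, the receptor for exit from lymphoid tissue, averaged 563 CPM in TEPP-46 cells, 38.1 CPM in control cells and 1575 CPM in resting cells. Its log2 fold change was 3.88 ± 0.48 in TEPP-46 over control cells (adjusted p = 0.00209) and -5.37 ± 0.51 in control over resting cells (adjusted p = 0.00019). S1pr4 (2.23 ± 0.29, adjusted p = 0.00233) and Cxcr3 (3.43 ± 0.36, adjusted p = 0.0013), a chemokine receptor of effector and memory T cells, were higher too. The receptor that was higher in control cells than in resting cells was Ccr4 (3.14 ± 0.49, adjusted p = 0.00164). Without TEPP-46 replicate 4, 5 receptors were higher and the other 5 did not pass, and scaling by total counts alone gave 4 higher and 1 lower (Ccr4).

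Among 10 genes of the FOXO and ERK5-MEF2 inputs to Klf2, 3 were higher in TEPP-46 cells than in control cells (median log2 fold change 0.47), where 9.72% of all genes tested were higher. Foxo4 (1.51 ± 0.44, adjusted p = 0.0425) and Mef2d (1.42 ± 0.43, adjusted p = 0.0473) were higher, and without TEPP-46 replicate 4 both lost their calls (adjusted p = 0.0852 and 0.13). Both also lost them under scaling by total counts alone (0.058 for Foxo4 and 0.0653 for Mef2d), and Mef2d under DESeq2's size factors (0.0529). Mef2c, abundant in B cells and platelets as well, had 7, 197 and 23 counts in TEPP-46 replicates 1, 4 and 5, against 0, 3 and 0 counts in control cells (adjusted p = 0.0182). Among activated libraries its high one also had the most platelet and B cell markers, and that link was not tested. Foxo1, the main FOXO factor acting on Klf2 in T cells, had a log2 fold change of 0.36 ± 0.39 (adjusted p = 0.541), and Mapk7, which encodes ERK5, -0.34 ± 0.24 (adjusted p = 0.348).

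Of 11 cofactors of KLF proteins, Crebbp was higher (1.31 ± 0.39, adjusted p = 0.0429) and Hdac2 lower (-1.40 ± 0.39, adjusted p = 0.0371) in TEPP-46 cells than in control cells. Calls for 1 higher and 1 lower of 11 are near the 16.2% of all genes tested that passed (9.72% higher, 6.43% lower). Crebbp lost its call under scaling by total counts alone (0.0635), and both lost theirs without TEPP-46 replicate 4 (0.114 for Crebbp and 0.0579 for Hdac2). Ctbp1, the corepressor that KLF3 binds, averaged 187 CPM in TEPP-46 cells and 317 CPM in control cells, with a log2 fold change of -0.77 ± 0.66 (adjusted p = 0.437). Its TEPP-46 replicates 1, 4 and 5 had 256, 251 and 52.7 CPM, so replicate 5 pulled that mean down. Resting replicates 1, 4 and 5 had 60.8, 82.1 and 336 CPM. Among 8 ubiquitin ligases that act on KLF proteins the lowest adjusted p in TEPP-46 over control cells was that of Itch (0.0529, log2 fold change 0.95 ± 0.30). Itch and Siah1a were lower in control cells than in resting cells (-1.07 ± 0.30 and -1.30 ± 0.34, adjusted p = 0.0206 and 0.0154), where 15.8% of all genes tested were lower.

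In TGF-beta signalling, where KLF10 acts, Tgfbr2 (1.503 ± 0.23, adjusted p = 0.00407) and Smad3 (1.37 ± 0.20, adjusted p = 0.0034) were higher in TEPP-46 cells than in control cells, among 10 genes tested. Of all genes tested 9.72% were higher and 6.43% lower in TEPP-46 over control cells, and 15.5% higher and 15.8% lower in control over resting cells. In control cells against resting cells 5 were lower, among them Tgfbr2 (-2.32 ± 0.23) and the inhibitor Smad7 (-2.57 ± 0.33), and Tgfb1 was higher (1.47 ± 0.48, adjusted p = 0.0389). Both genes listed as targets of KLF13, Ccl5 and Bcl2l1, stayed short of the threshold in TEPP-46 over control cells (-0.81 ± 0.44, adjusted p = 0.225, and -0.71 ± 0.31, adjusted p = 0.141). Bcl2l1, a survival gene, was higher in control cells than in resting cells (1.84 ± 0.32, adjusted p = 0.00264). Of 7 cell cycle genes linked to KLF2 or KLF4, Myc was lower in TEPP-46 cells (149 ± 123 CPM) than in control cells (671 ± 266 CPM), with a log2 fold change of -2.17 ± 0.65 (adjusted p = 0.0455), and lost its call without TEPP-46 replicate 4 (0.103). Cdkn1a, which KLF4 can activate, averaged 87.0 CPM in TEPP-46 cells and 247 CPM in control cells (-1.495 ± 0.71, adjusted p = 0.165).

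**Figure D4:**
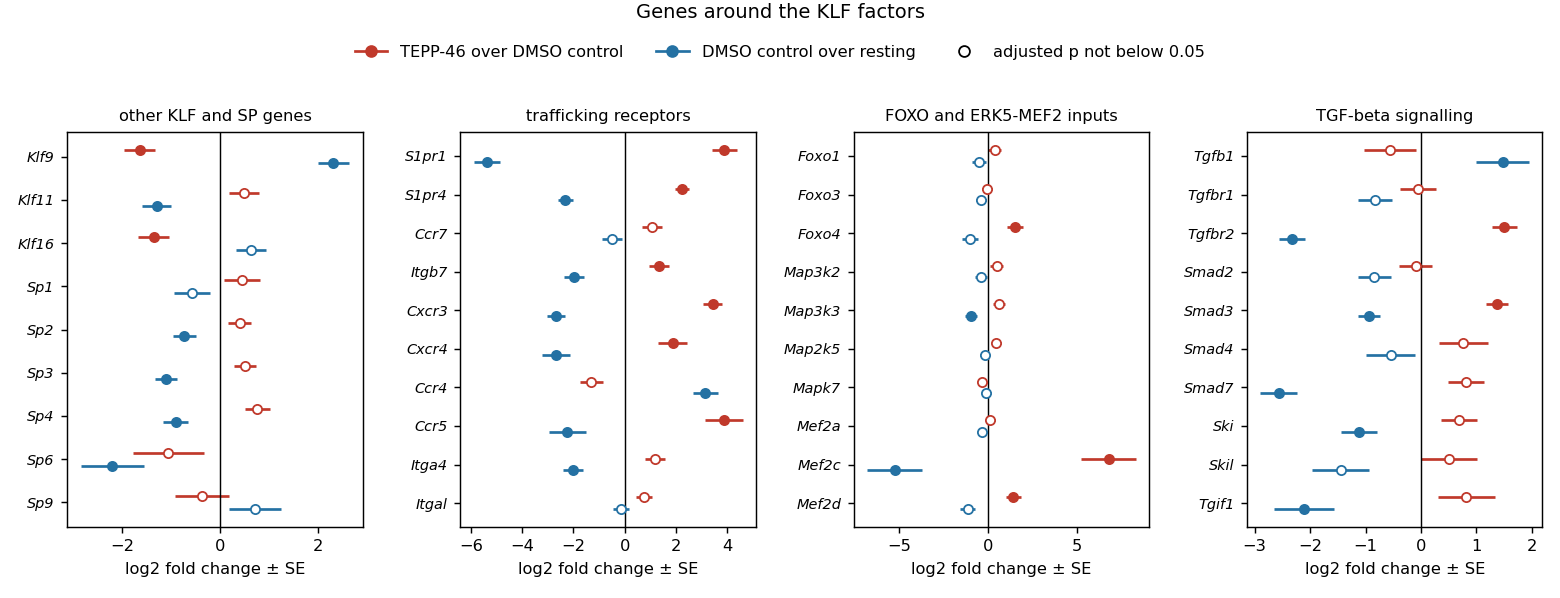
Log2 fold changes ± SE for genes of the KLF-related lists, as TEPP-46 over control cells and control over resting cells, with open points where the adjusted p was not below 0.05. In the trafficking panel S1pr1 lies at 3.88 for TEPP-46 over control cells and at -5.37 for control over resting cells.

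Immediate early genes are described beside the members because Klf2, Klf4 and Klf6 are themselves quick to respond to stimulation. Of 13, Btg2 (2.44 ± 0.33, adjusted p = 0.00277), Jun (1.41 ± 0.38, adjusted p = 0.0324) and Zfp36 (1.502 ± 0.42, adjusted p = 0.0362) were higher in TEPP-46 cells than in control cells, and Zfp36 lost its call without TEPP-46 replicate 4 (0.0643). Of all genes tested 9.72% were higher in that comparison. In control cells against resting cells 7 of 13 were lower, with a median log2 fold change of -2.09, and 15.8% of all genes tested were lower. Resting replicate 1, where the sum of these genes was lowest, also had the lowest resting level of Klf2 and Klf4 and the highest of Klf6. Without the 2 libraries that stood apart, TEPP-46 replicate 4 and resting replicate 1, the members lower in control cells than in resting cells were still Klf2, Klf3, Klf6 and Klf13, and against control cells Klf2 in TEPP-46 cells no longer passed (2.01, adjusted p = 0.0583).

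**Figure D5:**
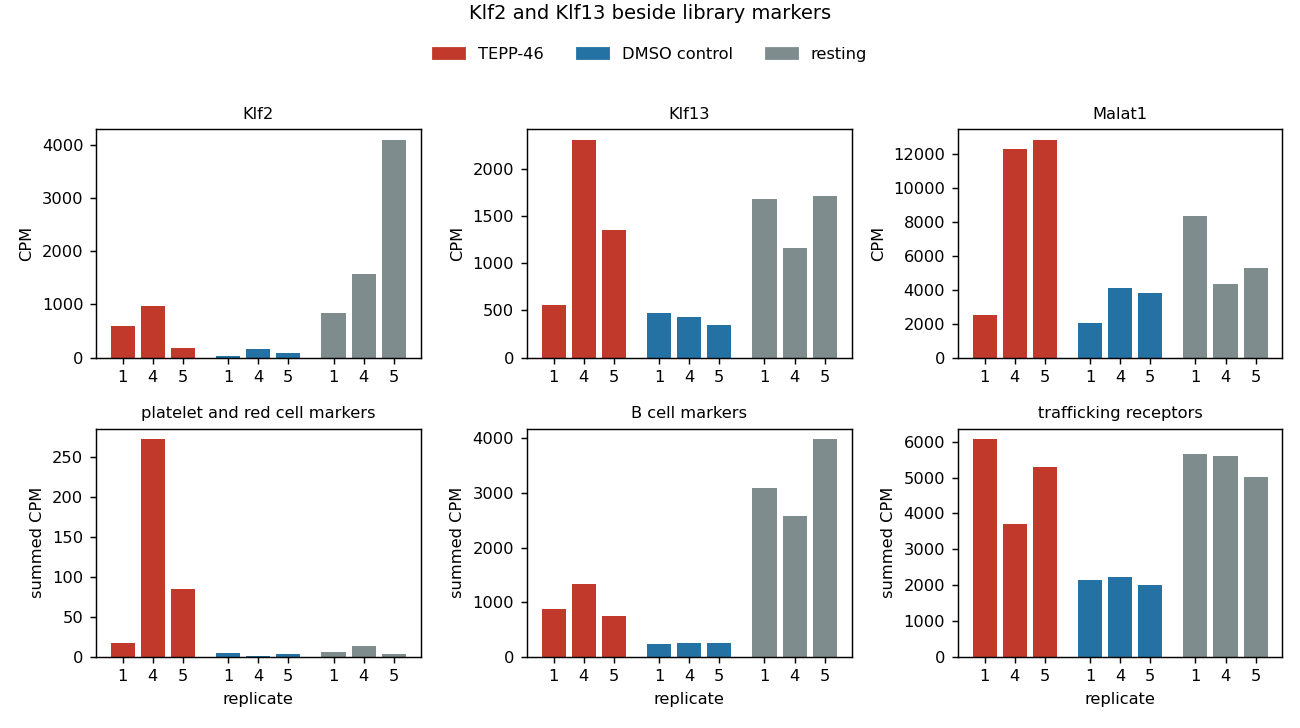
Klf2 and Klf13 levels in CPM per library beside Malat1 and the summed CPM of marker lists, with 3 bars each for TEPP-46, control and resting cells. Klf13 and the platelet and red cell markers are both highest in TEPP-46 replicate 4, at 2301 CPM and 271 summed CPM.

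The genes whose pattern over the 9 libraries was most like that of each member were found by the root mean square difference of centred log2 CPM, over 8727 genes. The nearest to Klf13 was Tnrc6c at 0.209, where the median over genes was 1.05. Tnrc6c had 60.2, 338 and 203 CPM in TEPP-46 cells, against 59.6, 48.5 and 47.1 CPM in control cells and 196, 179 and 174 CPM in resting cells. The same TEPP-46 library was highest for both, which the choice of Tnrc6c by its likeness to Klf13 in these libraries favours. The nearest to Klf3 were Lats2 (0.244) and Hexim1 (0.256), with a median over genes of 1.23. No gene was close to Klf2: Rasgrp2 was nearest at 0.797, followed by Prf1 at 0.918, with a median of 2.06. For Klf4 these were Slc17a9 (0.445) and Prmt3 (0.449), for Klf6 Cltb (0.429) and Sgk3 (0.477), for Klf7 Cbfa2t2 (0.159) and Wapl (0.182), and for Klf10 Slx4ip (0.226) and Mrpl9 (0.25). Among the members themselves Klf3 and Klf13 were closest (0.57), then Klf7 and Klf10 (0.59), and Klf2 and Klf4 were farthest apart (2.28).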

How the data were processed

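RNA was measured in 9 libraries. The values are raw counts that the authors deposited in 1 table. The submitters' processing notes name GRCm38 and DESeq2, and the sources used here do not give the aligner, counter or strand setting. Of 47937 identifiers, 47310 were paired with a GENCODE M21 symbol. The members and gene lists were chosen with earlier results of these data known.

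Of 23436 genes with a count, 12536 passed filterByExpr of edgeR 4.0.16 in R 4.3.3 (minimum count 10, total 15). All 9 libraries were fitted together with TMM scaling and the two-sided quasi-likelihood test, with 6 residual degrees of freedom and Benjamini-Hochberg adjustment at 0.05. The fit was tried on simulated counts with the same spread for every gene and group. That trial does not cover the wider spread of the TEPP-46 libraries or of Klf2. A floor of 3 counts was 0.596 to 1.25 CPM, and floors cover counting error only. Log2 CPM used a prior count of 2. Named genes were all 7 members, the 2 nearest genes to each (mean of at least 10 CPM), and up to 4 genes a list in order of adjusted p in TEPP-46 over control cells, with every KLF or SP gene that passed. Others named (Cd3e, Malat1, S100a8, S100a9, Camp, Ly6g, Ccr4, Foxo1, Mapk7, Ctbp1, Siah1a, Smad7, Tgfb1, Cdkn1a, Klf1) were chosen after their values were seen. Alternatives were DESeq2 1.42.0, limma 3.58.1 (voom, also with quality weights), other scalings and filters, 2 groups only, a replicate block and leaving out each library. A gene of the trafficking list is not reported here and was left out of its counts. The main fit did not pair libraries by replicate number.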

Additional observations from a re-analysis of the deposited data

How the results depend on the processing

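Genes called in TEPP-46 over control cells numbered 2025, with 3057 by DESeq2, 6164 with sample quality weights, and 395 to 4407 when each library was left out. In control over resting cells they numbered 3914, with 7315 under quality weights and 2316 to 5194 when each library was left out. In TEPP-46 over resting cells they numbered 1289, with 2090 by DESeq2, 3360 under quality weights, 400 with only those groups fitted, 1938 without the 2 libraries that stood apart (an alternative chosen after seeing the data), and 426 to 1897 when each library was left out; the causes were not tested. KLF genes called numbered 4 in TEPP-46 over control cells (1 to 4 when each library was left out), 4 in control over resting cells under every setting run, and 3 in TEPP-46 over resting cells (1 with only those groups fitted, 1 to 3 when each library was left out). With the replicate number as a block, TEPP-46 over resting cells gave 705 genes and 1 KLF gene (Klf6), TEPP-46 over control cells 1384 genes and 3 KLF genes (Klf13 at adjusted p = 0.0556), and control over resting cells 3339 and 4. Libraries with the same number did not deviate together (correlations -0.123 to 0.0893). With 3 libraries a group this cannot tell whether the number marks a shared mouse or batch. KLF results that passed the threshold kept their direction in every alternative run. Some that did not pass changed sign, the most often Klf4 in control over resting cells, which kept it in 12 of 19 alternatives (-0.33 to 0.53). Klf4 was too low to test with at least 10 counts in every library. Klf2 passed in TEPP-46 over resting cells in 4 alternatives, among them quality weights (log2 fold change -3.25, adjusted p = 0.00188). Low counts limit Klf4.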
